A study of Mus musculus with 28 samples.

Results

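Endothelial cells are the single layer of cells that lines blood and lymphatic vessels, and they were followed here in the outflow vein of a mouse arteriovenous fistula (AVF). In this model the end of the jugular vein is joined to the side of the carotid artery, so that the vein carries arterial flow. Endothelial cells were chosen by a rule on unique molecular identifiers (UMIs), the counted RNA molecules, among barcodes that held 200 to 6000 genes and no more than 10% mitochondrial UMIs. A barcode counted as endothelial with at least 3 UMIs, and at least 0.1% of its UMIs, from Pecam1, Cdh5, Vwf, Ptprb, Cldn5, and Egfl7 together. It also had no UMI of the leukocyte gene Ptprc, at most 1 UMI of the platelet gene Ppbp, under 1.5% of UMIs from Col1a1, Col1a2, Col3a1, and Dcn, and under 1% from Acta2, Tagln, Myh11, and Myl9. The rule found 749 endothelial cells among 16893 kept barcodes of 3 single-cell libraries, with 628 of 6319 in contralateral veins, 59 of 4753 in early AVFs, and 62 of 5821 in late AVFs. The 6 genes of the rule were measured values of these cells, so their levels in the single-cell libraries are given as a description.

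The mice were male and female C57BL/6 animals, and every mouse, controls included, had a 5/6 nephrectomy before the AVF was made. Each single-cell library came from 1 pool of vessels of both sexes, either contralateral jugular veins, early AVFs, or late AVFs, dissociated with enzymes. A separate set of mice gave 25 bulk RNA libraries, 7 from contralateral veins and 8, 5, and 5 from AVFs that the sample labels place at days 3 (early), 10 (mid), and 21 (late). Since each single-cell condition had 1 library, its differences have no replicate check and no test was made, and only the bulk libraries allowed one. The contralateral vein shared the circulation of an animal with an AVF on the other side, which limits it as an untouched vein.

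Endothelial cells keep blood fluid, control what crosses the vessel wall, and recruit leukocytes through selectins, adhesion molecules, and chemokines on their surface. They sense the drag of flowing blood through junction proteins and the transcription factors Klf2 and Klf4, which hold them in a quiet, anticoagulant state. Venous identity depends on the nuclear receptor Nr2f2, arterial identity on Notch ligands and Sox17, and lymphatic identity on Prox1. When the layer is injured or sprouts, cells at the front switch to a tip-cell program and lay down a new basement membrane, the sheet of type IV collagen and laminin beneath them.

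The label was checked on 20 endothelial markers that the rule did not use, among them the receptor kinases Kdr, Flt1, Tie1, and Tek, and the surface glycoprotein Emcn. All 20 were detected in the chosen cells of each library. Of these, 17, 17, and 16 stood at least 8-fold above all other kept barcodes in the contralateral, early, and late libraries, with 10 CPM added to both sides (CPM, counts of a gene scaled to the same total in each library). At least 1 of these markers was found in 616 of 628, 59 of 59, and 61 of 62 cells. The medians of UMIs per endothelial cell were 2729.5 in the contralateral, 9426 in the early, and 4548.5 in the late library, and the summed UMIs were 2533170, 631137, and 418215. No endothelial barcode was shared between libraries, among 14 to 19 barcodes that a pair of libraries shared. The threshold on the rule genes was met with exactly 3 UMIs by 48, 3, and 6 cells, while 54, 8, and 12 barcodes stood just outside with 2 UMIs.

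Endothelial cells made up a smaller share of the fistula libraries. They were 9.94% of kept barcodes in contralateral veins (exact binomial 95% interval 9.21 to 10.7%), 1.24% in early AVFs (0.946 to 1.60%), and 1.07% in late AVFs (0.818 to 1.36%). Intervals on shares and on CPM (exact Poisson) in these libraries cover counting error only. Leukocytes, barcodes with at least 2 UMIs of Ptprc, numbered 1231, 2678, and 2449. With leukocytes left out of the denominator, the endothelial share was 12.3% (11.5 to 13.3%) in the contralateral, 2.84% (2.17 to 3.65%) in the early, and 1.84% (1.41 to 2.35%) in the late library. The intervals of both fistula libraries lay below that of the contralateral library with either denominator, and the early and late intervals of the share of all kept barcodes overlapped. How well each vessel released its endothelium during dissociation was not measured.

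The late endothelial cells were lymphatic to a larger extent. Cells with at least 2 UMIs of Prox1, Mmrn1, Ccl21a, and Flt4 together, genes of lymphatic endothelium, were 127 of 628 in contralateral veins (20.2%, exact binomial 95% interval 17.1 to 23.6%), 11 of 59 in early AVFs (18.6%, 9.69 to 30.9%), and 34 of 62 in late AVFs (54.8%, 41.7 to 67.5%). The late interval lay above both others. Of all kept barcodes, however, lymphatic cells were 2.01% in the contralateral library (1.68 to 2.39%), 0.231% in the early (0.116 to 0.414%), and 0.584% in the late (0.405 to 0.815%). Lymphatic cells were thus a smaller share of both fistula libraries than of the contralateral one. The cells with under 2 of these UMIs, called non-lymphatic here, numbered 501, 48, and 28, or 7.93, 1.01, and 0.481% of kept barcodes. Non-lymphatic values are therefore given beside many of the late values below. Among the non-lymphatic cells 68, 11, and 7 held 1 such UMI. The cut was on raw UMIs in libraries of unequal depth per cell, so shallow lymphatic cells can remain among them.

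**Figure D1:**
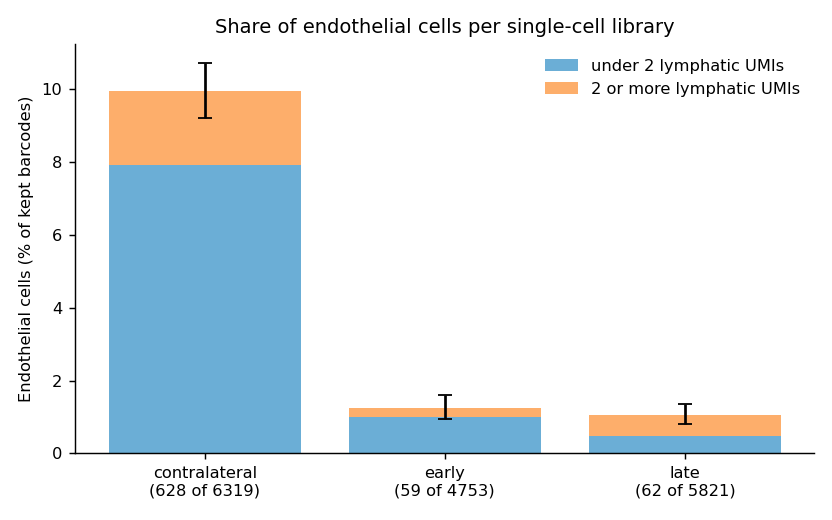
Bars give endothelial cells as a percent of kept barcodes in each single-cell library, split into cells with under 2 and with 2 or more lymphatic UMIs, and the whiskers are exact binomial 95% intervals of the whole share. The share was 9.94% in contralateral veins against 1.24 and 1.07% in early and late AVFs, and cells with 2 or more lymphatic UMIs were 34 of 62 late cells.

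Clustering of the 749 cells without the vessel-type markers gave 7 groups, described here by their leading genes and with no test. The first of them, 201 cells of which 199 were contralateral, had a median of 1264 UMIs and was led by the myelin gene Mbp and by hemoglobin genes, and it was left without a name. Another held 169 cells, all contralateral, and was led by Vwf, Fmo2, and Adgrg6. A lymphatic-like group held 131 cells, an arterial-like group 69 cells, and a capillary-like group 40 cells. The arterial-like group had 10 of 15 arterial markers at least 2-fold above the other endothelial cells, and also carried the smooth muscle genes Myl9, Myh11, and Acta2. A group of 70 cells, 38 early, 31 late, and 1 contralateral, was led by genes that include Col4a1, Col4a2, Thbs1, and Igfbp3. The last group, 69 cells of which 67 were contralateral, was led by Icam1, Fosb, and Hspa1b. Sizes of these groups were not compared between libraries, since the genes that define them differed between libraries as well.

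Endothelial cells of early AVFs carried more RNA for basement membrane and for sprouting than those of contralateral veins. Of 14 basement membrane genes measured, 8 were at least 2-fold higher and 0 lower, where 10.9% of 4461 measured genes were higher and 11.8% lower. The median log2 ratio of these 14 genes was 1.502, and that of all measured genes was -0.09. Col4a1, a chain of type IV collagen, stood at 176 CPM (160.5 to 194) in the contralateral, 2264 CPM (2148 to 2385) in the early, and 995 CPM (901 to 1095) in the late library. A UMI of Col4a1 was found in 22.3% of contralateral, 79.7% of early, and 72.6% of late endothelial cells. Thinned to 1500 UMIs per cell, with shallower cells left out, these shares were 15.2, 70.4, and 59.2%, against 1.60, 2.40, and 3.40% of 500 leukocytes per library, drawn at random and thinned alike, which should lack the gene. Its partner chain Col4a2 stood at 77.8 CPM (67.3 to 89.4) in the contralateral, 1180.4 CPM (1097 to 1268) in the early, and 545 CPM (477 to 621) in the late library. The log2 ratios of early over contralateral cells, with 10 CPM added, were 3.61 for Col4a1 and 3.76 for Col4a2. Col18a1, the precursor of endostatin, stood at 104, 951, and 538 CPM in the contralateral, early, and late libraries, and Col15a1, a collagen of the outer face of the basement membrane, at 53.3, 480.1, and 117 CPM. The collagen-binding glycoprotein Sparc was also higher, at 535, 2988, and 1557 CPM, although other barcodes held 5225, 4168, and 5809 CPM of it. In non-lymphatic cells Col4a1 stood at 184, 2419, and 1296 CPM, so the order of the 3 libraries was the same. A gene counted as measured with at least 50 CPM in 1 of the libraries compared and at least 20 UMIs in all, so a gene that reached this minimum through 1 library alone had to differ, and the counts of genes here hold such genes.

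The type IV collagen genes are arranged in pairs, and Col4a1 and Col4a2 lie head to head on mouse chromosome 8 and are transcribed in opposite directions. Both are shown here because their RNA was higher together in fistula endothelium. The RefSeq promoter windows, 250 bases before to 50 bases after each gene's start, came from GRCm38.p6, at chr8:11312555-11312854 on the plus strand for Col4a2 and at chr8:11312777-11313076 on the minus strand for Col4a1. They share 78 bases, chr8:11312777-11312854, printed in capitals in each window as read on its own strand, 5′ to 3′.
Col4a2: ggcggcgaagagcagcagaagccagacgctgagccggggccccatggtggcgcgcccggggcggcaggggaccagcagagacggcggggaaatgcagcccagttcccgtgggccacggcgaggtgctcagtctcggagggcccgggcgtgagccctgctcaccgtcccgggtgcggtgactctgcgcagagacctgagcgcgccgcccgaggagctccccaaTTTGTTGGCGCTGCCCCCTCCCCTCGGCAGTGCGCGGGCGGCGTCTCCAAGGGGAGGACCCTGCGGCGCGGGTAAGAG
Col4a1: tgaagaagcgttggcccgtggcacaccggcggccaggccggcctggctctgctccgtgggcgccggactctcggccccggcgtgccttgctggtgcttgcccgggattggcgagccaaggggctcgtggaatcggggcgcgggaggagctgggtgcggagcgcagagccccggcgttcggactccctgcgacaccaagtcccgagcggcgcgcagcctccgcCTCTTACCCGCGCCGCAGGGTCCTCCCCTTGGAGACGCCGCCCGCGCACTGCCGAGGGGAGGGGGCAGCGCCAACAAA

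The letters GGGCGG, the core bound by Sp family factors, occurred on either strand in 3 places of the Col4a2 window and 1 of the Col4a1 window, and in 11714 of 32851 windows of all genes (35.7%). A match of letters is a description of the sequence and does not show binding.

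**Figure D2:**
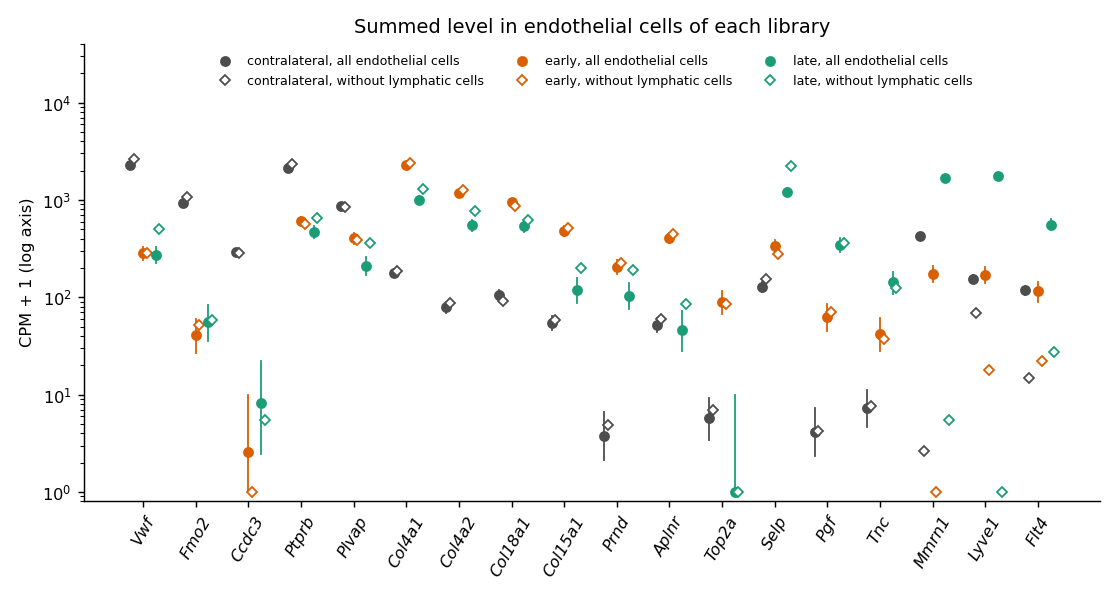
Level of 18 genes in endothelial cells of the 3 single-cell libraries, as CPM with 1 added on a log axis, with filled points for all endothelial cells, lines for their exact Poisson 95% intervals, and open diamonds for non-lymphatic cells. Col4a1, at 176, 2264, and 995 CPM, was higher in both fistula libraries, Vwf, at 2263, 282, and 273 CPM, was lower in both, and late Lyve1 was 1762 CPM in all cells with a far lower open diamond.

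Tip-cell genes mark the leading cells of a sprout, and the list includes 4 of the basement membrane genes (Col4a1, Col4a2, Nid2, and Lama4). In early cells 9 of 15 were at least 2-fold higher and 1 was lower (10.9 and 11.8% of all measured genes), with a median log2 ratio of 1.51. As above, the count holds genes that reached the minimum through fistula libraries alone. Aplnr, the receptor of the peptide apelin, stood at 51.3 CPM (42.9 to 60.9) in the contralateral, 407 CPM (359 to 460.1) in the early, and 45.4 CPM (27.4 to 70.9) in the late library, and was high in the early library alone. Apln, its ligand, was 4.74 CPM in contralateral cells and 49.1 and 90.9 CPM in early and late cells. The chemokine receptor Cxcr4 stood at 8.68, 68.1, and 64.6 CPM. Among the genes with the largest early ratios, Prnd, a relative of the prion protein, stood at 2.76, 204, and 103 CPM. The immune checkpoint relative Cd276 was 0.395 CPM in contralateral cells, which is 1 UMI, and 84.0 and 21.5 CPM in early and late cells. The imprinted gene Mest stood at 20.5 CPM (15.3 to 26.9) in the contralateral, 304 CPM (263 to 350.4) in the early, and 47.8 CPM (29.2 to 73.9) in the late library, and in non-lymphatic cells at 19.1, 270.5, and 75.4 CPM, so that it was highest early and still above the contralateral level late.

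RNA of the cell division genes Mki67 and Top2a was highest in early endothelial cells. Only 8 of 20 listed cell division genes reached the minimum, and genes that reach it through the early library alone had to differ, so no count over them is given. The proliferation gene Mki67 stood at 2.76, 71.3, and 7.17 CPM, and the DNA topoisomerase Top2a at 4.74, 88.7, and 0 CPM. After thinning to 1500 UMIs, Mki67 or Top2a was found in 5 of 448 contralateral (1.12%, exact binomial 95% interval 0.363 to 2.59%), 8 of 54 early (14.8%, 6.62 to 27.1%), and 0 of 49 late endothelial cells, where the exact interval of the share of cells with a UMI reaches up to 7.25%. Without thinning, the shares among the same cells were 2.68, 31.5, and 6.12%, so 3 of these 49 late cells had a UMI before thinning. Leukocytes, which can also divide, gave 3.6, 5.8, and 7.8% when thinned alike, and the interval of the early endothelial share overlapped with that of early leukocytes (3.92 to 8.22%).

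Several genes of contralateral endothelium were far lower in fistula endothelium. Vwf, the von Willebrand factor stored in endothelial granules and a gene of the rule, stood at 2263 CPM (2205 to 2323) in the contralateral, 282 CPM (242 to 327) in the early, and 273 CPM (225 to 327) in the late library. Its late value rested on 14 cells, 1 of which held 56.1% of the UMIs. Genes outside the rule behaved alike: Fmo2, a flavin monooxygenase, stood at 924 CPM (887 to 962) in the contralateral, 39.6 CPM (25.6 to 58.5) in the early, and 55.0 CPM (34.9 to 82.5) in the late library, and Ccdc3 at 288, 1.58, and 7.17 CPM. The adhesion receptor Adgrg6 stood at 176, 3.17, and 2.39 CPM, and the glutamate receptor subunit Gria3 at 187, 1.58, and 2.39 CPM. Cyp26b1, which breaks down retinoic acid, was 109 CPM in contralateral cells and had 0 UMIs in both fistula libraries, where a count of 0 allows up to 4.75 CPM early and 7.17 CPM late (3 counts). Ptgs1, the constitutive cyclooxygenase, stood at 461, 47.5, and 62.2 CPM. Cp, the ferroxidase ceruloplasmin, stood at 708, 53.9, and 502 CPM in all endothelial cells, at 482, 36.2, and 186 CPM in non-lymphatic cells, and at 871 CPM in lymphatic late cells, so its late level depended on the cells counted.

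Of 11 venous genes measured, 2 were at least 2-fold higher and 5 lower in early cells, where 10.9% of all measured genes were higher and 11.8% lower. The 5 lower genes include Vwf, a gene of the rule, and Mmrn1, a gene of the lymphatic split. Nr2f2, the regulator of venous identity, stood at 646 CPM (615 to 678) in the contralateral, 171 CPM (140.4 to 207) in the early, and 521 CPM (454 to 595) in the late library. In non-lymphatic cells Nr2f2 was 624.9, 132, and 178 CPM, so it was low in both fistula libraries once lymphatic cells, which also express it, were set apart. Arterial genes were 4 higher and 0 lower of 13 in early cells, with the gap junction genes Gja4 at 59.6, 181, and 59.8 CPM and Gja5 at 43.0, 133, and 50.2 CPM. The arterial transcription factor Sox17 stood at 75.0, 168, and 69.3 CPM, so these arterial genes were highest in the early library. In non-lymphatic cells Gja4 stood at 36.0, 215, and 62.1 CPM, Gja5 at 54.1, 173, and 93.2 CPM, and Sox17 at 98.3, 179, and 129 CPM. Gja1, another connexin, was higher in both, at 78.6, 276, and 459 CPM.

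Of 13 flow-responsive genes, 1 was at least 2-fold higher and 4 were lower in early cells (10.9 and 11.8% of all measured genes). Their median log2 ratio was -0.51, and the list includes Pecam1, a gene of the rule. Klf2 stood at 1055 CPM (1015 to 1096) in the contralateral, 496 CPM (443 to 554) in the early, and 703 CPM (624.9 to 788) in the late library, and in non-lymphatic cells at 1052, 492, and 439 CPM. Klf4 stood at 933, 196, and 1004 CPM, and in non-lymphatic cells at 893, 183, and 528 CPM, so its late level depended on the cells counted. With the contralateral-rich group led by Icam1, Fosb, and Hspa1b left out, Klf2 stood at 916, 496, and 698 CPM and Klf4 at 699, 196, and 982 CPM. Thbd, the thrombin receptor thrombomodulin, stood at 326, 128, and 206 CPM, and Nos3, the endothelial nitric oxide synthase, at 263, 176, and 146 CPM. Immediate early genes, which enzyme dissociation can also induce, were 1 higher and 9 lower of 15 in early cells (10.9 and 11.8% of all measured genes). Fos, for example, stood at 1415, 469, and 1463 CPM and Egr1 at 862, 276, and 879.9 CPM, or 872, 469, and 1378 CPM and 522, 276, and 816 CPM without that group, and the part of this difference in the levels of Klf2 and Klf4 was not tested.

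Mesenchymal genes were examined because endothelial cells can take on features of connective tissue cells, and the rule removed barcodes rich in fibrillar collagen and smooth muscle RNA. Of 21 measured mesenchymal genes that the rule did not use, 8 were at least 2-fold higher and 0 lower in early cells (10.9 and 11.8% of all measured genes), and 10 higher and 1 lower in late cells (7.69 and 8.9%). The intermediate filament gene Vim stood at 2381, 6452, and 5160 CPM, and the matrix glycoprotein Fn1 at 216, 385, and 777 CPM. S100a4 stood at 39.5, 534, and 40.6 CPM, and after thinning it was found in 27.8% of early endothelial cells against 49.2% of early leukocytes. Acta2, a gene of the rule, was 83.7, 174, and 371 CPM in endothelial cells against 192, 905, and 1579 CPM in other barcodes. It was found in 13.0% of early endothelial cells (exact interval 5.37 to 24.9%) and 12.0% of early leukocytes (9.28 to 15.2%) after thinning. Leukocytes should lack it, and whether the early endothelial UMIs were background was not tested. In the late library the shares with Acta2 were 32.7 and 19.4%, with exact intervals that overlapped (19.9 to 47.5% and 16.0 to 23.1%), and no difference was read from them. Tagln, also a gene of the rule, was found in 11.6, 13.0, and 28.6% of contralateral, early, and late endothelial cells after thinning. In leukocytes its shares were 4.0, 8.4, and 13.0%. The late Tagln intervals (16.6 to 43.3% and 10.2 to 16.3%) did not overlap, nor did the contralateral ones, while the early ones did. The source of this Tagln RNA was not tested.

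Markers of other cells were present in the endothelial barcodes at low levels. Summed macrophage and monocyte markers were 942, 1349.9, and 944 CPM in the contralateral, early, and late endothelial cells, against 4933, 28215, and 8894 CPM in other barcodes. Fibroblast markers summed to 2063, 1561, and 1979.8 CPM, smooth muscle markers to 337, 615, and 949 CPM, and neutrophil markers to 30.8, 119, and 67.0 CPM. Erythroid markers, which are hemoglobin genes above all, summed to 31944, 4452, and 4.78 CPM, and Schwann cell markers to 207, 9.51, and 9.56 CPM, so both were highest in the contralateral library. Their part in the differences between libraries was not tested. Doublets were kept, since Scrublet, which scores them, called 0 of 6319 barcodes in the contralateral library and 2 of 4753 in the early one and so did not work there, and of 120 calls in the late library none was endothelial.

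In late AVFs the basement membrane and tip-cell genes were still higher than in contralateral veins. Of 14 basement membrane genes, 7 were at least 2-fold higher and 2 lower, and of 15 tip-cell genes 10 higher and 0 lower, where 7.69% of measured genes were higher and 8.9% lower. In the 28 non-lymphatic late cells against the 501 contralateral ones, 8 of 14 basement membrane and 12 of 15 tip-cell genes were higher, where 11.2% of 4420 measured genes were higher and 15.4% lower. The median log2 ratios there were 1.27 and 1.96, and that of all measured genes was -0.11. These counts hold genes, such as Apln and Pgf, that were under 50 CPM in contralateral cells and reached the minimum through fistula libraries. A gene that reached it through the late library alone had to be higher, so the counts are a description. The 2 lists also share Col4a1, Col4a2, Nid2, and Lama4. Thbs1, the platelet and matrix glycoprotein thrombospondin, stood at 44.6 CPM (36.8 to 53.6) in the contralateral, 257 CPM (219 to 299) in the early, and 825 CPM (740.2 to 917) in the late library, and at 36.6, 324, and 1287 CPM in non-lymphatic cells. After thinning, Thbs1 was found in 6.03, 24.1, and 36.7% of contralateral, early, and late endothelial cells and in 3.4, 43.0, and 23.6% of leukocytes. It was thus found more often in fistula leukocytes as well. Tnc, the matrix protein tenascin C, stood at 6.32, 41.2, and 141 CPM, and at 6.55, 36.2, and 124 CPM in non-lymphatic cells. Kit, a receptor tyrosine kinase of some capillary endothelium, stood at 4.34, 72.9, and 74.1 CPM, and at 3.28, 89.5, and 138 CPM in non-lymphatic cells. Pgf, placental growth factor, reached 347 CPM in the late library against 3.16 and 61.8 CPM, but 3 of its 16 late cells held 68.3% of the UMIs.

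Several general endothelial markers were lower in late cells. Of 20 markers outside the rule, 1 was at least 2-fold higher and 9 were lower than in contralateral cells (7.69 and 8.9% of all measured genes). In non-lymphatic cells 1 was higher and 6 were lower (11.2 and 15.4%). Plvap, the diaphragm protein of endothelial vesicles, stood at 867 CPM (831 to 904) in the contralateral, 401 CPM (353 to 453) in the early, and 210.4 CPM (169 to 259) in the late library, and the receptor Flt1 at 767, 442, and 277 CPM. In non-lymphatic cells Plvap stood at 840.1, 389.8, and 364 CPM and Flt1 at 913, 466.4, and 497 CPM. Kdr, the main VEGF receptor of blood endothelium, stood at 400.3, 333, and 383 CPM, and at 305, 315, and 178 CPM in non-lymphatic cells. Fabp4, a fatty acid binding protein of microvascular endothelium and fat cells, stood at 5729, 2887, and 1035 CPM, and the fatty acid transporter Cd36 at 849.5, 263, and 112 CPM. In non-lymphatic cells Fabp4 stood at 6995, 3444, and 1868 CPM and Cd36 at 1012, 337, and 151 CPM.

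Lymphatic genes were among those with the largest late ratios. Of 9 lymphatic genes measured, 7 were at least 2-fold higher in late than in contralateral cells and 0 lower (7.69 and 8.9% of all measured genes). Lyve1, a hyaluronan receptor of lymphatic capillaries, stood at 153 CPM (138 to 169) in the contralateral, 168 CPM (138 to 203) in the early, and 1762 CPM (1637 to 1894) in the late library, and Mmrn1, a granule protein, at 428.3, 173, and 1676 CPM. Within lymphatic cells alone, Lyve1 stood at 374, 606, and 3821 CPM, and the VEGF-C receptor Flt4, a gene of the lymphatic split, at 384, 384, and 1172 CPM. Nts, the neuropeptide neurotensin, stood at 164, 128, and 1624 CPM, and 3 late cells held 92.6% of its late UMIs. With lymphatic cells left out, Lyve1 stood at 67.7, 17.0, and 0 CPM and Nts at 57.4, 38.3, and 0 CPM, so both had 0 UMIs in the 28 late cells and neither was higher there.

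Genes for leukocyte capture differed by gene. Selp, the P-selectin that first catches rolling leukocytes, stood at 127 CPM (113 to 141) in the contralateral, 334 CPM (291 to 383) in the early, and 1200.3 CPM (1098 to 1310.1) in the late library, but its late value rested on 10 cells, and 3 of them held 87.6% of the UMIs. In non-lymphatic cells Selp stood at 151, 277, and 2228 CPM. Vcam1, a ligand of leukocyte integrins, stood at 214 CPM (196 to 232) in the contralateral, 643 CPM (582 to 709) in the early, and 452 CPM (389.8 to 521) in the late library, and at 265, 364, and 803 CPM in non-lymphatic cells. Icam1, the ligand of leukocyte beta integrins, stood at 506, 187, and 198 CPM, and the group of 69 cells that it leads, 67 of them contralateral, held 857 of its UMIs. With that group left out, an alternative chosen after seeing the data, Icam1 stood at 208, 187, and 168 CPM, so its high contralateral level rested on those cells. Of 18 chemokine and cytokine genes, 11 reached the minimum, and they are described by examples alone. Cxcl1, a neutrophil attractant, stood at 27.6, 152, and 796 CPM in endothelial cells, and other barcodes held 238, 1417, and 2997 CPM. Ccl2, a monocyte attractant, stood at 26.1, 189, and 279.8 CPM, below the 490.2, 1287, and 2447 CPM of other barcodes, so both genes moved in the same order outside the endothelium. Il6 reached 227 CPM in late cells, with 78.9% of the UMIs in 1 cell.

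Of 12 heat shock genes, 10 were at least 2-fold higher and 0 lower in late than in contralateral cells (7.69 and 8.9% of all measured genes), and 11 higher and 0 lower in non-lymphatic cells (11.2 and 15.4%). Their summed level was 7734, 7472, and 21537 CPM in the contralateral, early, and late endothelial cells and 18243, 17614, and 38899.7 CPM in other barcodes, so it was highest in the late library outside the endothelium as well, and the part of this in the endothelial levels was not tested. The inducible chaperone Hspa1a stood at 1218 CPM (1175 to 1262) in the contralateral, 1144 CPM (1062 to 1231) in the early, and 3878 CPM (3692 to 4072) in the late library.

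Late and early endothelial cells were also set against each other, over 2 libraries that differ in depth per cell. Of 9 lymphatic genes, 8 were at least 2-fold higher and 0 lower in late cells, of 13 arterial genes 1 higher and 7 lower, and of 14 basement membrane genes 0 higher and 5 lower, where 8.34% of measured genes were higher and 5.76% lower. In non-lymphatic cells the counts were 0 higher and 5 lower of 12 arterial genes and 0 higher and 2 lower of 14 basement membrane genes, where 7.44% of measured genes were higher and 7.31% lower. Among the genes with the lowest late over early ratios was Aplnr, whose late level of 45.4 CPM was near the contralateral 51.3 CPM. Ly6a and Ly6c1, surface proteins of the Ly6 family carried by mouse vascular endothelium, stood at 645, 1259.6, and 287 CPM and at 324, 689, and 134 CPM in the contralateral, early, and late libraries. Id1, a target of bone morphogenetic protein signals, stood at 300.4, 388, and 74.1 CPM. In non-lymphatic cells Ly6a was 793, 1082, and 497 CPM, Ly6c1 401, 767, and 239.7 CPM, and Id1 336, 330.1, and 75.4 CPM.

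Bulk libraries were used to test endothelial genes in vessels that had no part in choosing them. Apart from the 6 rule genes, 52 genes stood at least 8-fold above other barcodes in endothelial cells of all 3 single-cell libraries and averaged at least 100 CPM, and these are called endothelial-enriched. All 52 were among the 12673 genes tested in bulk by edgeR's quasi-likelihood test, with p-values adjusted by the Benjamini-Hochberg (BH) method over all tested genes and calls at an adjusted p under 0.01 and a log2 fold change of at least 1 in size. In early AVFs against contralateral veins, 23 of 52 (44.2%) were called lower and 0 higher, where 6.45% of all tested genes were lower and 6.17% higher. The median log2 fold change was -1.44 over the 52 genes and -0.01 over all tested genes. In mid AVFs 16 of 52 (30.8%) were lower and 0 higher (3.31 and 2.74% of all tested genes), with medians of -1.18 and -0.10. In late AVFs 12 of 52 (23.1%) were lower and 0 higher (2.85 and 2.49%), with medians of -0.99 and -0.09. These 3 comparisons share the contralateral libraries. Fewer endothelial cells in a vessel and less RNA of a gene per endothelial cell cannot be told apart in bulk RNA.

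The contralateral bulk libraries had more genes without a count than the others, with 2.86 to 22.5% of tested genes at 0 (median 13.5%) against at most 4.70% in any AVF library. Without the 4 contralateral libraries in which over 10% of tested genes were at 0, 29, 22, and 15 of the 52 genes were lower in early, mid, and late AVFs, and 0, 1, and 1 higher. Calls over all 12673 tested genes, in either direction, also rose, from 1599, 767, and 676 to 2273, 1263, and 1083. The larger counts among the 52 genes are therefore not read as a stronger endothelial result. Depth ranged from 20254173 to 67457501 counts per library. Markers of other cells moved in the same comparisons. In early AVFs 8 of 12 smooth muscle genes were called lower and 0 higher, 14 of 15 macrophage genes higher and 0 lower, and 6 of 9 neutrophil genes higher and 0 lower. In late AVFs 6 of 12 smooth muscle genes were lower, 4 of 15 macrophage genes were higher, and 5 of 7 erythroid genes were lower. Over all tested genes, 6.17 and 2.49% were called higher in early and late AVFs, and 6.45 and 2.85% lower. The part of these other cells in the endothelial result was not tested.

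**Figure D3:**
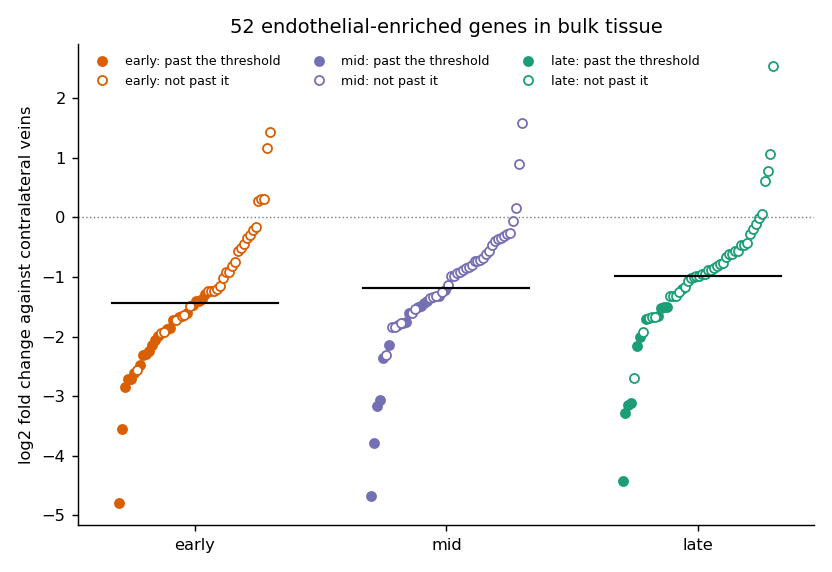
Each point is 1 of the 52 endothelial-enriched genes, with its log2 fold change in bulk early, mid, or late AVFs against contralateral veins, filled where it passed the threshold, and the line is the median. The medians were -1.44, -1.18, and -0.99, and the 23, 16, and 12 filled points were all below 0.

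Vwf had the largest fold change among the rule genes. It ranged from 785 to 1959 CPM (median 1368) over the 7 contralateral veins and from 45.5 to 113 CPM (median 69.0) over the 8 early AVFs. The 5 mid AVFs held 115, 125, 158, 175, and 180 CPM, and the 5 late AVFs 121, 131, 214, 249, and 255 CPM. Every AVF library lay below every contralateral vein, and the late AVFs all lay above the early ones. The log2 fold change was -4.26 (SE 0.26, edgeR quasi-likelihood BH-adjusted p = 1.0e-11) in early, -3.20 (SE 0.30, edgeR quasi-likelihood BH-adjusted p = 5.6e-08) in mid, and -2.83 (SE 0.29, edgeR quasi-likelihood BH-adjusted p = 4.7e-07) in late AVFs. Late against early AVFs it was 1.43 (SE 0.25, edgeR quasi-likelihood BH-adjusted p = 0.0023), a call that was lost without late replicate 17 or 24 (adjusted p = 0.0118 and 0.0119). Ptprb, the phosphatase that acts on the TIE2 receptor and on junctions, ranged from 242 to 863 CPM (median 606) in contralateral veins, 29.6 to 107 CPM (median 69.6) in early, 106 to 144 CPM (median 113) in mid, and 107 to 143 CPM (median 125) in late AVFs. No AVF library reached the contralateral range, and the early log2 fold change was -3.09 (SE 0.25, edgeR quasi-likelihood BH-adjusted p = 1.6e-09).

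The other rule genes did not all move alike. Egfl7, a secreted matrix protein of endothelium, had log2 fold changes of -2.82, -2.51, and -2.61 in early, mid, and late AVFs, with calls in all 3. Pecam1, a junction adhesion protein, was lower in early AVFs, at -1.80 (SE 0.25, edgeR quasi-likelihood BH-adjusted p = 4.8e-06), with overlapping ranges, while its late log2 fold change of -1.04 missed the threshold (edgeR quasi-likelihood BH-adjusted p = 0.016). Cdh5, the cadherin of endothelial junctions, was called lower in mid (-1.75) and late AVFs (-2.01) but not in early AVFs (-0.81). Cldn5, a tight junction protein, was not called, at 0.90, 1.17, and 1.38. Thus 4, 5, and 4 of the 6 rule genes were lower in early, mid, and late AVFs.

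Of the 52 enriched genes, 11 were lower in all 3 comparisons: Adgrf5, Calcrl, Cavin2, Cytl1, Emcn, Esam, Flt1, Mmrn2, Plvap, S1pr1, and Tspan7. Libraries did not overlap with contralateral veins in any of the 3 comparisons for 9 of them, all but Calcrl and Tspan7, where 2.34, 4.69, and 4.25% of all tested genes lay below without overlap in early, mid, and late AVFs. Cytl1, a secreted cytokine-like protein, ranged from 584 to 2642 CPM (median 994) in contralateral veins and from 5.59 to 128 CPM (median 36.8) in early AVFs. Mid AVFs held 33.9, 41.4, 42.3, 55.2, and 70.8 CPM, and late AVFs 34.1, 46.7, 59.9, 73.1, and 74.8 CPM. The AVF libraries stayed below the lowest contralateral vein, with log2 fold changes of -4.79 (SE 0.51, edgeR quasi-likelihood BH-adjusted p = 1.3e-07) early and -4.42 (SE 0.61, edgeR quasi-likelihood BH-adjusted p = 1.9e-05) late. In the late single-cell library Cytl1 came from 3 cells.

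Promoter windows were also read for enriched genes that were lower in all 3 bulk comparisons. RefSeq windows were found for 7 of these 11 genes, and the letters AGGAAG, a core bound by ETS family factors, were counted on both strands. Cytl1 and Cavin2, those with the highest mean level in endothelial cells among genes with a match, are shown with the match in capitals, which reads CTTCCT where it lies on the other strand, from GRCm38.p6 at chr5:37735269-37735568 and chr1:51288876-51289175, both on the plus strand and 5′ to 3′.
Cytl1: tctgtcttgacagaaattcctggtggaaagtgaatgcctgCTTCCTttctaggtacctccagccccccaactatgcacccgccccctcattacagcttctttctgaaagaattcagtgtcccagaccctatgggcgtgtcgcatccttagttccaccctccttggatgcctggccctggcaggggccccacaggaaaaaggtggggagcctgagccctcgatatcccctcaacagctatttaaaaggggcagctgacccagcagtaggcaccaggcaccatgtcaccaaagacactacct
Cavin2: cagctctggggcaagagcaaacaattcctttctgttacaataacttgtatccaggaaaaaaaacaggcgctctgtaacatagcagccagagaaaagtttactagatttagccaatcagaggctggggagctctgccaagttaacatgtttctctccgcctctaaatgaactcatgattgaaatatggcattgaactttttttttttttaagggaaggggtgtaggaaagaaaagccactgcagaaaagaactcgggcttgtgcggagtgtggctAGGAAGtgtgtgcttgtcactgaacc

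The letters AGGAAG occurred on either strand in 20 of 38 windows of the 32 enriched genes matched to RefSeq (52.6%) and in 11613 of 32851 windows of all genes (35.4%), a comparison given with no test. Emcn and Flt1 had 2 matches, Cytl1, Cavin2, and Calcrl 1, Adgrf5 1 and 0 in its pair of windows, and Tspan7 none. No match says only that these letters are not in the window.

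Emcn ranged from 240.4 to 865 CPM (median 359.7) in contralateral veins and from 21.4 to 102 CPM (median 60.9) in early AVFs. Its 5 mid AVFs held 41.1, 43.4, 43.5, 53.2, and 69.0 CPM, and its 5 late AVFs 46.0, 46.1, 51.5, 53.0, and 61.8 CPM. No AVF library overlapped with the contralateral veins, and the log2 fold changes were -2.85, -3.16, and -3.11. Plvap followed the same course, at 275 to 1645 CPM (median 584) in contralateral veins and 28.0 to 116 CPM (median 59.8) in early AVFs, and log2 fold changes of -3.55, -3.79, and -3.15. Cavin2, a coat protein of caveolae, ranged from 365 to 1167 CPM (median 699) in contralateral veins and from 33.8 to 191 CPM (median 144) in early AVFs, with a log2 fold change of -2.72 (SE 0.30, edgeR quasi-likelihood BH-adjusted p = 1.9e-07). S1pr1, the receptor for sphingosine phosphate that steadies junctions, had log2 fold changes of -1.73, -1.51, and -1.52. Adgrf5, an adhesion receptor of lung and kidney endothelium, had log2 fold changes of -2.31, -1.76, and -1.71. Other enriched genes were called early only, as Aqp1, the water channel, at -1.40 (SE 0.23, edgeR quasi-likelihood BH-adjusted p = 4.7e-05), or early and mid, as Ece1, the enzyme that makes active endothelin, at -1.87 and -1.32.

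**Figure D4:**
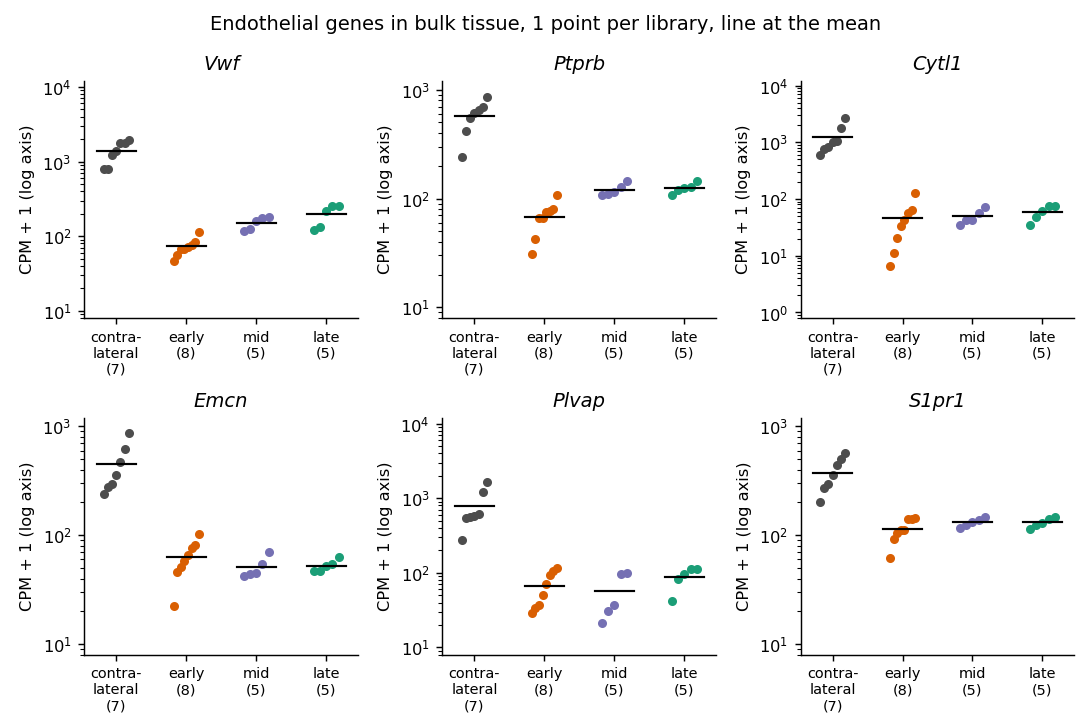
CPM with 1 added, on a log axis, of Vwf, Ptprb, Cytl1, Emcn, Plvap, and S1pr1 in 7 contralateral, 8 early, 5 mid, and 5 late bulk libraries, with 1 point per library and a line at the mean. Every AVF point lay below every contralateral point in all 6 genes.

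Calls were absent for 28 of the 52 genes in all 3 comparisons, among them Kdr, Icam2, Sox18, Flt4, Selp, Nts, Podxl, and Efnb2. Selp, whose single-cell value was high in a few late cells, had bulk log2 fold changes of 0.30, -0.36, and -0.47. Fabp4 ranged from 1359 to 4242 CPM (median 2977) in contralateral veins and from 159 to 5025 CPM (median 839) in early AVFs, so these overlapped, with a log2 fold change of -1.21 (SE 0.47, edgeR quasi-likelihood BH-adjusted p = 0.063). Without early replicate 3, which held the highest value, the early difference was called (edgeR quasi-likelihood BH-adjusted p = 0.000256). In mid and late AVFs Fabp4 was called lower, at -3.07 and -3.28. Of 7 fat cell markers, 1 was called lower in each (3.31 and 2.85% of all tested genes). All 7 had fitted fold changes below 0, with median log2 values of -2.28 and -2.38, against -0.10 and -0.09 over all tested genes. The part of fat cells in the Fabp4 difference was not tested.

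Genes that were lower in early endothelial cells of the single-cell library were also mostly lower in bulk. Of the 12 named by size of the early ratio, 10 were tested in bulk, and 8, 5, and 4 were called lower in early, mid, and late AVFs, with 0 higher. Over all tested genes, 6.45, 3.31, and 2.85% were called lower. The 12 genes also had to stand at least 2-fold above other barcodes in the contralateral library. Fewer endothelial cells and less RNA per endothelial cell thus cannot be told apart for them either. A 2-fold minimum also leaves room for RNA of other cells. The paper lists Fmo2 among genes that were lower in fibroblasts of early and late AVFs. The part of other cells in these bulk changes was not tested. Fmo2 ranged from 463 to 1044 CPM (median 756) in contralateral veins and 22.6 to 76.2 CPM (median 67.5) in early AVFs, at -3.66 (SE 0.28, edgeR quasi-likelihood BH-adjusted p = 7.2e-10), and from 106 to 222 CPM (median 162) in late AVFs. Late AVFs lay above early AVFs for Fmo2 with no overlap, at 1.56 (SE 0.28, edgeR quasi-likelihood BH-adjusted p = 0.0024), a call lost without late replicate 16 or 17 (adjusted p = 0.0125 to 0.0134). Ccdc3 had log2 fold changes of -3.97, -3.28, and -3.17, and Ptgs1 of -1.84, -2.04, and -2.03, all called. Vwf is one of these 12 genes and one of the rule genes.

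Most flow-responsive genes were lower in early AVFs. Of 16 tested in bulk, 10 were called lower and 1 higher in early AVFs (6.45 and 6.17% of all tested genes), 4 lower and 1 higher in mid AVFs (3.31 and 2.74%), and 3 lower and 1 higher in late AVFs (2.85 and 2.49%). The lower calls in early AVFs were Ace, Asb2, Edn1, Klf4, Nos3, Pecam1, Plpp3, S1pr1, Tek, and Thbd, and the 1 higher gene was the potassium channel Kcnj2. Among them, Pecam1 is a gene of the rule, and Nos3 and S1pr1 are endothelial-enriched genes. Nos3 ranged from 15.2 to 204 CPM (median 61.2) in contralateral veins and from 7.44 to 37.5 CPM (median 14.5) in early AVFs, with a log2 fold change of -2.15 (SE 0.43, edgeR quasi-likelihood BH-adjusted p = 5.8e-04), and was not called in mid or late AVFs. Klf2 ranged from 92.8 to 163 CPM (median 137) in contralateral veins and from 16.5 to 47.2 CPM (median 35.8) in late AVFs, with no overlap. It was called lower in mid and late AVFs, at -2.06 (SE 0.42, edgeR quasi-likelihood BH-adjusted p = 0.0016) in late, while its early log2 fold change of -1.03 was not called. Ace, the angiotensin-converting enzyme, and Plpp3, a lipid phosphatase, were higher in late than in early AVFs, at 1.74 (SE 0.31, edgeR quasi-likelihood BH-adjusted p = 0.0024) and 1.29 (SE 0.22, edgeR quasi-likelihood BH-adjusted p = 0.0015). Venous genes had 5 of 12 lower in early AVFs, 3 in mid, and 3 in late AVFs, with 0 higher in each. The 5 were Ephb4, Il6st, Mmrn1, Nr2f2, and the rule gene Vwf. For flow-responsive and venous genes alike, fewer endothelial cells and less RNA per endothelial cell cannot be told apart in bulk. Nr2f2 ranged from 127 to 581 CPM (median 292) in contralateral veins and from 34.5 to 83.2 CPM (median 48.9), 52.1 to 89.4 CPM (median 64.9), and 61.9 to 106 CPM (median 66.1) in early, mid, and late AVFs, with no overlap. Its early log2 fold change was -2.68 (SE 0.27, edgeR quasi-likelihood BH-adjusted p = 5.4e-08). Arterial genes had 1 of 13 higher and 2 lower in early AVFs, 0 and 0 in mid AVFs, and 2 higher and 0 lower in late AVFs, so most were not called.

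In bulk, Col4a1, whose start region is printed above, rose in mid and late AVFs. It ranged from 145 to 323 CPM (median 219) in contralateral veins and 210.2 to 535 CPM (median 375) in early AVFs, which overlapped. Mid AVFs held 565, 651, 882, 958, and 1039 CPM, and late AVFs 1038, 1049.7, 1169, 1274, and 1277 CPM. All mid and late AVFs lay above every contralateral vein, where 7.32 and 6.25% of all tested genes did so. The log2 fold change was 0.68 (SE 0.22, edgeR quasi-likelihood BH-adjusted p = 0.025) in early AVFs, which was not called, 1.80 (SE 0.24, edgeR quasi-likelihood BH-adjusted p = 1.1e-05) in mid AVFs, and 2.30 (SE 0.24, edgeR quasi-likelihood BH-adjusted p = 5.7e-07) in late AVFs. Late AVFs also lay above early AVFs, at 1.63 (SE 0.23, edgeR quasi-likelihood BH-adjusted p = 3.5e-04), where 7.16% of all tested genes lay above without overlap and 0.726% were called higher. In the single-cell libraries the early endothelial cells held the highest level, and since their labels give no day, early and late need not stand for the same times in both assays. Other barcodes held 178, 91.0, and 179 CPM of Col4a1 in the contralateral, early, and late libraries. They had 26678372, 55171186, and 98002908 UMIs in all, against 2533170, 631137, and 418215 in endothelial cells. Most Col4a1 UMIs of each library thus lay outside the endothelial cells, and the endothelial part in the bulk rise was not tested.

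Col4a2 ranged from 5.78 to 203 CPM (median 141) in contralateral veins, with 112 to 316 CPM (median 207) in early AVFs. Its 5 late AVFs held 407, 527, 603, 604, and 622 CPM, all above the contralateral veins, with a log2 fold change of 2.39 (SE 0.49, edgeR quasi-likelihood BH-adjusted p = 0.002). Col18a1 was called higher in late AVFs as well, at 2.89 (SE 0.71, edgeR quasi-likelihood BH-adjusted p = 0.0075), with 0.375 to 130.1 CPM (median 66.8) in contralateral veins and 331 to 452 CPM (median 396) in late AVFs, but this call was lost in 9 alternative fits (adjusted p = 0.0103 to 0.0175). The perlecan gene Hspg2 was called higher in mid (1.40) and late AVFs (1.67). Of 15 basement membrane genes, 0, 2, and 4 were called higher in early, mid, and late AVFs and 1, 0, and 0 lower. Over all tested genes, 6.17, 2.74, and 2.49% were called higher and 6.45, 3.31, and 2.85% lower. Late against early AVFs, 2 of these 15 genes were higher and 8 lay above without overlap (0.726 and 7.16% of all tested genes). In the single-cell libraries these 15 genes summed to 2284, 10118, and 5308 CPM in contralateral, early, and late endothelial cells. Other barcodes held 6675, 4969, and 7479 CPM of them, and the endothelial part in these bulk changes was not tested.

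Genes of sprouting were called in part. Apln was at 0 in 5 of 7 contralateral veins and at most 0.862 CPM in the others, and ranged from 5.44 to 17.4 CPM (median 9.66) in early and from 8.12 to 12.7 CPM (median 9.29) in late AVFs, with no overlap, where 4.47% of all tested genes lay above in early AVFs. It was called higher in early, mid, and late AVFs (edgeR quasi-likelihood BH-adjusted p = 1.1e-04, 6.2e-04, and 5.0e-04), and its fitted folds are not given since they depend on the value set in place of 0. Cxcr4 was called higher in early AVFs, at 3.78 (SE 0.82, edgeR quasi-likelihood BH-adjusted p = 0.0013), and leukocytes also carry this receptor. Of 15 tip-cell genes, 3, 2, and 3 were called higher in early, mid, and late AVFs and 0 lower, while Aplnr, Pgf, and Angpt2 were not called. Over all tested genes, 6.17, 2.74, and 2.49% were called higher in early, mid, and late AVFs. Cell division genes had 9 of 20 higher in early AVFs (45%) and 0 lower, and leukocytes of the single-cell libraries held Mki67 or Top2a as well. Of the 12 genes named for the largest early ratios in endothelial cells, 11 were tested in bulk, and 1, 2, and 4 were called higher in early, mid, and late AVFs and 0 lower. The early share of these 11, 9.09%, was near the 6.17% of all tested genes, and nothing is read from it. The 4 late calls were Cd276, Col18a1, Col4a1, and Col4a2, and that of Cd276 was lost in 20 alternative fits (adjusted p = 0.0104 to 0.0215 by edgeR) and that of Col18a1 in 9, as given above.

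Mmrn1 was the 1 lymphatic gene of 9 called between late and early AVFs. In late AVFs against contralateral veins, 0 of these 9 genes were called and 0 lay above or below without overlap. Over all tested genes, 2.49% were called higher and 2.85% lower there. The higher lymphatic levels of late over contralateral single-cell endothelium thus had no matching bulk call. Mmrn1 was 0.666 to 252 CPM (median 77.9) in contralateral veins and 0.109 to 25.7 CPM (median 13.9) in early AVFs. Mid AVFs held 35.9, 36.7, 48.2, 70.6, and 144 CPM, and late AVFs 116, 137, 162, 175, and 206 CPM. The late libraries all lay above the early ones, with a log2 fold change of 3.48 (SE 0.80, edgeR quasi-likelihood BH-adjusted p = 0.0071), a call that was lost in 11 alternative fits (adjusted p = 0.0106 to 0.021). Mmrn1 was the 1 enriched gene of 52 called higher in late against early AVFs, and 0 were lower, where 0.726% of all tested genes were higher and 2.28% lower. Without overlap, 7 of the 52 lay above and 1 below, against 7.16 and 8.39% of all tested genes. Flt4 was 0 to 41.1 CPM in contralateral veins, 3.01 to 25.7 CPM (median 7.92) in early, and 37.1, 40.2, 46.3, 49.6, and 56.7 CPM in late AVFs. Its late and early AVFs did not overlap, but it was not called between them, at 2.23 (SE 1.01, edgeR quasi-likelihood BH-adjusted p = 0.26). Lyve1, which macrophages also express, was called lower in early AVFs, at -1.61 (SE 0.39, edgeR quasi-likelihood BH-adjusted p = 0.0034), and not in mid or late AVFs.

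**Figure D5:**
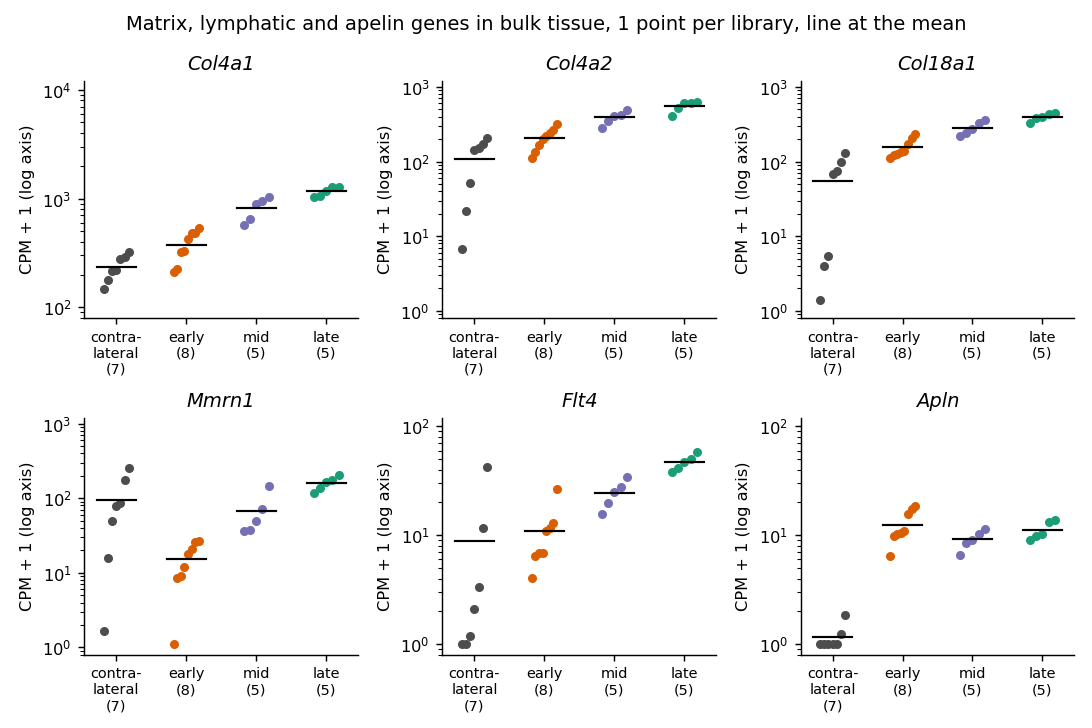
CPM with 1 added, on a log axis, of Col4a1, Col4a2, Col18a1, Mmrn1, Flt4, and Apln in the same 25 bulk libraries, with 1 point per library and a line at the mean. Late points of Col4a1, Col4a2, and Col18a1 lay above all contralateral points, and late points of Mmrn1 and Flt4 above all early ones.

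Heat shock genes, higher in the late endothelial cells, were not called higher in late bulk vessels. Bulk libraries hold whole ground vessels of other mice, and all 3 single-cell libraries were dissociated. The cause of this difference between the assays was not tested. In bulk, 2, 3, and 2 of 12 were called lower and 0 higher in early, mid, and late AVFs, where 6.45, 3.31, and 2.85% of all tested genes were lower. Hspa1a was 30.4 to 144 CPM (median 86.2) in contralateral veins and 7.20 to 24.6 CPM (median 9.30) in late AVFs, with no overlap, and had a log2 fold change of -2.75 (SE 0.52, edgeR quasi-likelihood BH-adjusted p = 7.6e-04).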

How the data were processed

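For 3 single-cell libraries the authors deposited UMI counts, one value for a gene in a barcode, made with Cell Ranger (version 6.0.2), and read counts per gene, without normalization, for 25 bulk libraries of 56980 genes; the submitters' processing notes name STAR and the builds mm10 and GRCm38, without saying which step used which. The endothelial cells and all gene lists were chosen with earlier results of these data known.

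UMIs were summed over endothelial cells of a library and given as CPM, and log2 ratios were taken of CPM + 10 over genes with at least 50 CPM in 1 or more libraries and at least 20 UMIs, 2-fold counting as higher or lower. Cells were clustered with leidenalg 0.10.2 and scanpy 1.11.5 (Python 3.11.15) on 2000 variable genes without vessel-type markers, 12 components, 20 neighbours, and a resolution of 0.5. Bulk counts were fitted with edgeR 4.0.16 in R 4.3.3 (TMM, quasi-likelihood F test, 4 group means over 25 libraries, a minimum of 100 for the mean count after DESeq2 normalization, Benjamini-Hochberg over 12673 genes). Each bulk library is 1 vessel as far as the labels say, and p-values measure the spread between these libraries. Bulk values are CPM of the TMM-scaled library, not divided by gene length.

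Genes were named by a rule: per comparison, the 12 highest and 12 lowest ratios among genes with at least 50 CPM and 10 cells in the library where they were higher and at least 2-fold above other barcodes there, without mitochondrial, ribosomal protein, hemoglobin, or sex-linked genes, plus the 10 enriched genes of highest mean CPM and the most abundant members of each list. Further list members were chosen after their values were seen. Alternatives used other cell thresholds, added CPM, scalings, count minimums, DESeq2 1.42.0, a sex term, and each library left out. Results of some genes are not reported here.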

Additional observations from a re-analysis of the deposited data

Results flagged for a closer look

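Among 248 groups of libraries over 62 named genes in bulk, 18 held a library whose gap to the next was wide for the range of its group, and chance gives about 1 group in 20. Values are CPM. In contralateral veins the lowest library stood apart for Nts (0.875, replicate 28), Id1 (7.75, replicate 31), and Klk8 (0, replicate 31), and the highest for Fgl2 (513, replicate 31), Sema3a (21.3, replicate 27), and Adgrg3 (4.90, replicate 27). In early AVFs replicate 6 stood apart as the lowest for Cp (35.3), Reln (0), and Mmrn1 (0.109), while replicate 7 was the highest for Myrip (5.74) and replicate 3 for Cldn5 (38.3). In mid AVFs the highest library stood apart for Hells (16.0, replicate 15), Fmo2 (207, replicate 13), Gadd45a (58.8, replicate 12), Snn (7.98, replicate 9), and Cdh5 (55.3, replicate 9), and the lowest for Ptger4 (11.1, replicate 15) and Reln (10.3, replicate 14). Late AVFs had none.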

How the results depend on the processing

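In the single-cell libraries, the endothelial share was 8.61% in contralateral veins with at least 5 UMIs of the rule genes and 8.95% with mitochondrial UMIs at most 5%, which also gave 0.802% in early AVFs; under every alternative the contralateral share stayed above both fistula shares. With 50 CPM added, 217 genes were 2-fold higher and 221 lower in early over contralateral cells, 154 and 159 in late over contralateral cells, and 160 and 70 in late over early cells. Genes lower in late over contralateral cells numbered 682 with lymphatic cells left out and 653 with the lymphatic-like subcluster left out, an alternative chosen after seeing the data. Resolution 1.0 gave 11 subclusters. With lymphatic cells left out, the late over contralateral log2 ratio was -2.96 for Lyve1, -2.75 for Nts, and -0.0861 for Fgl2, and the late over early one -2.27 for Nts, -1.44 for Lyve1, -0.28 for Pard6g, and -0.28 for Prox1; without the lymphatic-like subcluster Nts was -1.98 over contralateral and -0.49 over early cells. These changes follow from the cells removed, and Lyve1 and Nts had 0 UMIs in the late cells left, so their ratios rest on the 10 CPM added. In bulk, genes enriched in the contralateral library alone, 127 of them, gave 63, 41, and 30 lower in early, mid, and late AVFs, 1 higher in early AVFs, and 2 higher in late over early AVFs, and a 16-fold minimum, which left 10 genes, gave 6, 5, and 5 lower and 0 higher in late over early AVFs. Late over early AVFs, the 1 higher gene became 0 with filterByExpr or a sex term and 2 with the DESeq2 Wald test, which like edgeR's likelihood ratio test also called 1 lower. Leaving out single libraries gave 22 to 27, 13 to 18, and 11 to 18 lower in early, mid, and late AVFs, 0 to 2 higher and 0 to 1 lower in late over early AVFs, and 0 to 1 higher in late AVFs over contralateral veins. Without the contralateral libraries that had many genes at 0, also chosen after seeing the data, 1 enriched gene was higher in mid and 1 in late AVFs, and 4 were higher and 1 lower in late over early AVFs. Calls over all tested genes in late over early AVFs, in either direction, rose there from 381 to 1118. Calls of single genes that were lost stand in the report beside their values, except Pecam1 and Cd276 in mid AVFs (lost in 13 fits, adjusted p = 0.0101 to 0.0229 by edgeR, and in 6 fits, 0.0106 to 0.0198), Tnc in late AVFs (10 fits, 0.0109 to 0.0224), Myrip in early AVFs (4 fits, 0.0102 to 0.0118), Mmrn1 in early AVFs (17 fits, 0.01003 to 0.0285), and Lyve1 in early AVFs (2 fits, 0.0111 to 0.0764). Counts of lower enriched genes in early, mid, and late AVFs stayed within 1.5 times the reported ones under the other alternatives. The low number of fistula endothelial cells limits the depth, with 1 UMI worth 2.39 CPM in late cells. No paired analysis was possible because the bulk groups share fewer than 2 replicate numbers and each single-cell condition has 1 library.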
